A study of Homo sapiens with 4 samples.

Results

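MHC class I antigen presentation was described through 9 genes chosen by name: the heavy chains HLA-B, HLA-C and HLA-E, the light chain B2M, the peptide transporter subunits TAP1 and TAP2, the loading factor TAPBP, and the immunoproteasome subunits PSMB8 and PSMB9. They are 9 of 20137 genes in the tables, and all 9 passed the filter on low values. RNA was sequenced from MDA-MB-231, a mesenchymal triple-negative breast cancer cell line, in 2 libraries with a knockdown of AURKA (titled shA) and 2 control libraries (titled shC, and called mock-transfected in the design text). AURKA is the gene of Aurora kinase A, which drives entry into mitosis. The 4 libraries share the line and its serum-containing L-15 medium, and the labels name no hairpin sequence, clone or time after transfection. The design text speaks of biological replicates, but nothing says that they came from separate days, so the p-values measure only the spread between these samples, which may be technical.

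As background, class I molecules carry peptides from inside the cell to its surface, where CD8 T cells and natural killer cells read them. The proteasome cuts proteins into peptides, TAP1 and TAP2 pump them into the endoplasmic reticulum, and tapasin (TAPBP) holds the empty heavy chain and B2M beside the pump until a peptide fits. Interferons raise the transcription of most of these genes, through interferon response elements and through NLRC5, and tumour cells often carry low levels of them.

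The unit was taken to be FPKM (fragments of RNA counted per kilobase of transcript, per library depth), so levels of different genes can be set side by side. The labels give a replicate number and no batch. Row order and part of the transcript set were shared by the control and knockdown tables of 1 number and differed between the numbers, and from this each number is taken, by inference, to be a quantification run of its own, called the run here. Differences are therefore given within each run, and limma was fitted with no term for the run and again with such a term. A gene was called at a Benjamini-Hochberg adjusted p below 0.05 over 12136 tested genes. Rough depths, read from the value of 1 fragment in low genes, were 17400000 to 27800000 fragments per library. At these depths a member rested on 210 to 10070 fragments per library, and the counting error at the lowest was about 6.90%. Transcripts with no length in the reference used, 27.1% to 37.7% of TAP1 and 0.0% to 8.6% of PSMB9, were left out of these fragment numbers. AURKA was at 124 and 99.1 FPKM in the controls, as against 22.3 and 23.7 FPKM with AURKA knocked down, 4.86-fold lower by the means. Its adjusted p in limma was 0.0819 without the run and 0.000696 with it. Without the run, then, even the knocked-down gene was not called, and a lack of calls in that fit says little. All 7 mesenchymal markers of the line reached 1 FPKM. Of these, AXL, a receptor kinase, fell with knockdown, with an adjusted p of 0.0469 in limma with the run. Of the 7 hormone receptor and luminal markers, ESR1, PGR and CDH1 were below 1 FPKM in every library. The other 4 reached 1 FPKM. KRT8 was at 237 to 259 FPKM, KRT18 at 265 to 346 FPKM, ERBB2 at 16.5 to 20.2 FPKM and EPCAM at 2.49 to 3.30 FPKM. Of 12 leukocyte markers, LAPTM5 was at 89.5 to 113 FPKM and the other 11, PTPRC and CD3E among them, were below 1 FPKM, with a summed level of 1.20 to 1.86 FPKM in the controls and 0.664 to 0.774 FPKM in the knockdown, and the part of these markers in the results was not tested.

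No member was called between knockdown and control. The count was 0 of 9 without the run (0% of all tested genes were called) and 0 of 9 with it (3.44% called, 1.53% higher and 1.9% lower). At an unadjusted p below 0.05 there were 0 members without the run (6.37% of all tested genes) and 2 with it, HLA-B and TAPBP (22.1%). The groups overlapped in all 9 members, while 35.9% of tested genes had groups that did not overlap. The median log2 difference of the members was 0.03, against 0.01 over all tested genes, and was 0.07 in run 1 and -0.08 in run 2. The sign was the same in both runs for 5 of 9 members and for 67% of all tested genes. The clearer pattern lay between the replicate numbers: 7 of the 9 members were higher in both replicate 1 libraries than in both replicate 2 libraries (32.7% of all tested genes), and 1, TAP2, was lower in both (20.5%). The plot of levels by library shows this.

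**Figure D1:**
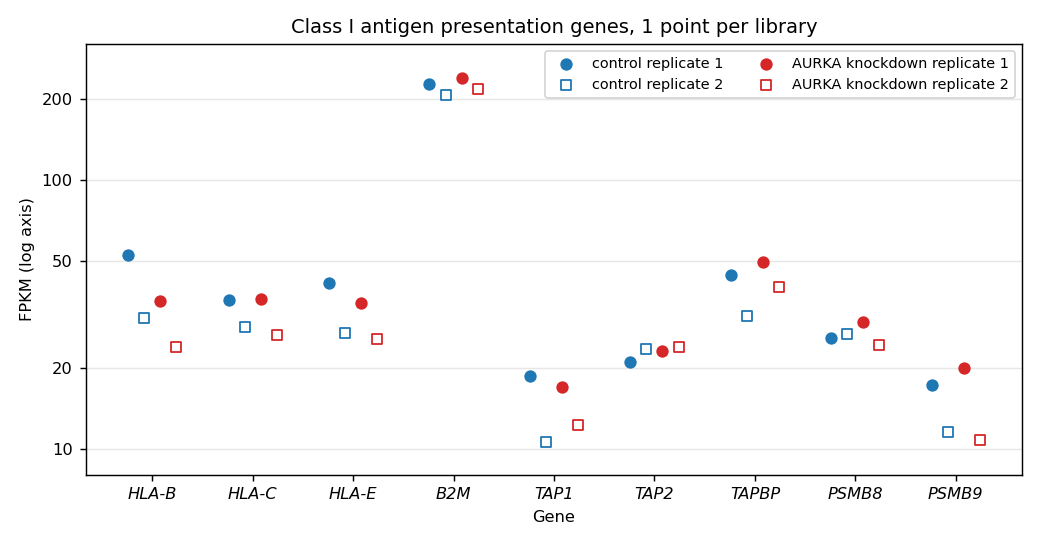
FPKM of the 9 genes in each library on a log axis, with 1 point per library; blue marks control, red the AURKA knockdown, filled circles replicate 1 and open squares replicate 2. B2M lies above 200 FPKM in every library, and the open squares lie below both filled circles for 7 genes, the exceptions being TAP2 and PSMB8.

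**Figure D2:**
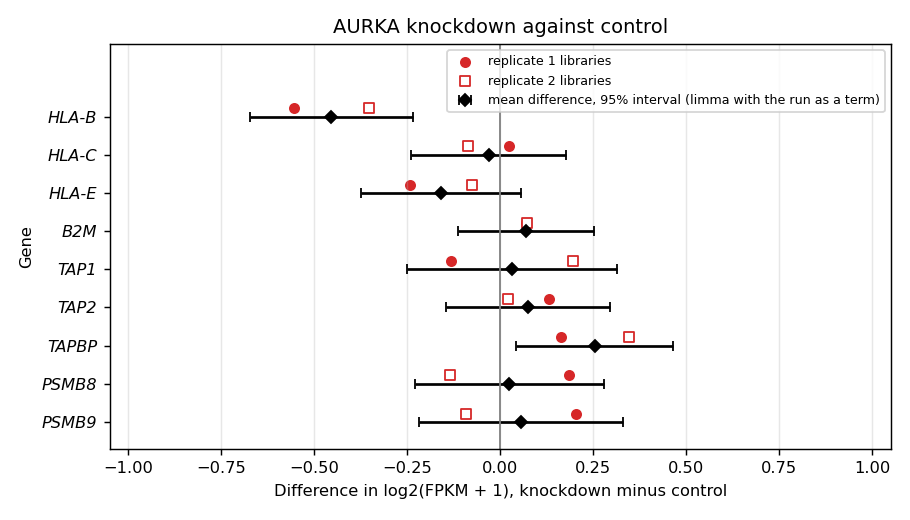
Difference in log2(FPKM + 1), knockdown minus control, for the 9 genes, as the mean with its 95% interval from limma with the run as a term (black) and within each run (red, 2 libraries each; for B2M the 2 runs fall on the same point). The intervals of HLA-B and TAPBP leave out 0 before adjustment for the number of genes, and the 2 runs lie on opposite sides of 0 for HLA-C, TAP1, PSMB8 and PSMB9.

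None of the 3 member heavy chains was called, and HLA-B came closest. HLA-B (ENSG00000234745, GRCh37 chromosome 6, 31321648 to 31324965), which presents peptides to CD8 T cells, was at 52.7 and 30.8 FPKM in control replicates 1 and 2 and at 35.5 and 23.8 FPKM in the knockdown. In each run the knockdown library was the lower, but control replicate 2 lay below knockdown replicate 1. The group means were 41.8 ± 15.5 and 29.7 ± 8.27 FPKM (SD, n = 2 each), 1.41-fold apart. The log2 difference of -0.46 was made up of -0.56 in run 1 and -0.35 in run 2, and its 95% interval ran from -1.23 to 0.32 without the run and from -0.67 to -0.24 with it. In limma, the adjusted p was 0.862 without the run and 0.0508 with it, just outside the threshold. With the run, HLA-B was called lower after median-of-ratios scaling (adjusted p 0.0072, where 9.63% of genes were called, 5.49% lower). It was also called lower after upper-quartile scaling (0.0464, where 482 of 12136 genes were called). The same held with a filter at 5 FPKM (0.0452, where 424 of 9715 genes were called). With a pseudocount of 0.1 and the run, HLA-B was not called (0.0670). Without control replicate 1, in the fit without the run, its difference was -0.08, with the replicate numbers then unequal between the groups.

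HLA-C (ENSG00000204525, GRCh37 chromosome 6, 31236525 to 31239863), the other classical heavy chain among the members and a main ligand of inhibitory receptors on natural killer cells, was at 35.6 and 28.3 FPKM in the controls, as against 36.2 and 26.6 FPKM with AURKA knocked down. The 2 replicate 1 libraries were nearly equal and above both replicate 2 libraries. The log2 difference was -0.03 (95% interval -0.24 to 0.18 with the run, adjusted p 0.868). The ratio of HLA-B to HLA-C was 1.48 and 1.09 in the controls and 0.982 and 0.897 in the knockdown, so HLA-B was the higher of the pair in both control libraries and the lower in both knockdown libraries. That ratio was looked at after the values were seen, and the exact permutation test over 4 libraries gave p = 0.333, the smallest it can give.

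HLA-E (ENSG00000204592, GRCh37 chromosome 6, 30457243 to 30461982), the nonclassical heavy chain that shows leader peptides of other class I chains to natural killer cells, was at 41.4 and 27.0 FPKM in the controls, as against 34.8 and 25.6 FPKM with AURKA knocked down. Its log2 difference was -0.16 (95% interval -0.38 to 0.06 with the run, adjusted p 0.349), with -0.24 in run 1 and -0.08 in run 2. Heavy chain genes are close copies of each other and differ between people, so fragments of the line's own alleles can be lost or misassigned when they are counted against a reference, and levels of single HLA genes are uncertain. The files give values per reference transcript, which were summed to genes: HLA-E had 1 transcript, HLA-B had 1 of 2 above 0, and in HLA-C the transcript ENST00000376228 held 77.1% and 62.7% of the gene in the controls and 76.1% and 62.1% in the knockdown. That share followed the replicate number and not the group.

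The 2 classical promoters are shown because the ratio of these genes is described above and their sequences are close. They are the 200 bases before the RefSeq start, 5′ to 3′ on the gene's strand, in GRCh38.p14: HLA-B at chr6:31357180-31357379 and HLA-C at chr6:31272093-31272292, both on the minus strand. Capitals mark matches to an NF-kappaB motif (its known 10-base consensus), an IRF element (GAANNGAAA or its reverse complement) and a CCAAT box on either strand.
HLA-B: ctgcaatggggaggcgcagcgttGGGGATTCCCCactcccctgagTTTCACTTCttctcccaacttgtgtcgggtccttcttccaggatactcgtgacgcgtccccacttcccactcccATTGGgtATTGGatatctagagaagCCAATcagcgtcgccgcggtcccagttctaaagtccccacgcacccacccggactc
HLA-C: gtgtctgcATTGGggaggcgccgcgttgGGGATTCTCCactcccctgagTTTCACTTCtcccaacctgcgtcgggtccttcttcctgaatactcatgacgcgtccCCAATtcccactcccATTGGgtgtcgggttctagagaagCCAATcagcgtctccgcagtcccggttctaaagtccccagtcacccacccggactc
Of the aligned columns, 87.7% were identical, with 17 mismatches and 8 gap bases. Both windows hold, from upstream to downstream, an NF-kappaB match (at -177 to -167 in HLA-B and -172 to -163 in HLA-C), the IRF element, a CRE core (TGACG) and CCAAT boxes, and HLA-C has a further CCAAT box at -192 to -188. In HLA-B the NF-kappaB motif was matched on both strands and in HLA-C on 1.

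B2M (ENSG00000166710, GRCh37 chromosome 15, 45003674 to 45011075), the light chain that every class I molecule needs, was the most abundant member, at 228 and 207 FPKM in the controls, as against 239 and 217 FPKM with AURKA knocked down. Both replicate 1 libraries lay above both replicate 2 libraries, by 1.10-fold. The log2 difference between knockdown and control was 0.07 in each run (95% interval -0.11 to 0.25 with the run, adjusted p 0.642). The other 8 members lay between 10.6 and 52.7 FPKM in every library. By mean level they ran from TAPBP through HLA-B, HLA-E, HLA-C, PSMB8, TAP2 and PSMB9 to TAP1, and neighbours overlapped across libraries except PSMB8 with TAP2 and TAP2 with PSMB9.

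HLA-B, HLA-C and HLA-E together were at 130 and 86.1 FPKM in the controls, as against 107 and 76.0 FPKM with AURKA knocked down. Set against B2M, this sum, chosen after the data were seen, gave a ratio of 0.570 and 0.417 in the controls and 0.446 and 0.350 in the knockdown. The knockdown ratio was the lower in each run, and the groups overlapped. The log2 difference of the ratio was -0.30 (exact permutation test, p = 0.667).

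The B2M promoter (chr15:44711317-44711516, plus strand, GRCh38.p14) is given beside those of TAP1 (chr6:32853705-32853904, minus strand, the upstream of 2 starts) and TAPBP (chr6:33314079-33314278, minus strand). These 3 match the core of the interferon-stimulated response element, spelled here as GAAA, any 2 bases, GAAA. The HLA-B and HLA-C windows hold no match to this exact spelling, but both hold the shorter IRF element marked above. TAP2 and the downstream PSMB8 window also match the core, and their sequences are not shown. Capitals mark this core, the NF-kappaB motif and CCAAT boxes on either strand.
B2M: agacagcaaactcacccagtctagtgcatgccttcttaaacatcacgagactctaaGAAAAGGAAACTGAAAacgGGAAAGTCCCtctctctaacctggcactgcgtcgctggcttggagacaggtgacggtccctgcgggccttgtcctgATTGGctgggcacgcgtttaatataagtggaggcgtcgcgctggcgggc
TAP1: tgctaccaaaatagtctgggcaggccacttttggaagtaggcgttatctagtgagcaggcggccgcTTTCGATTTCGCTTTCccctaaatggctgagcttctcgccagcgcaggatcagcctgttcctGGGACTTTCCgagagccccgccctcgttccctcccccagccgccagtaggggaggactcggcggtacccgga
TAPBP: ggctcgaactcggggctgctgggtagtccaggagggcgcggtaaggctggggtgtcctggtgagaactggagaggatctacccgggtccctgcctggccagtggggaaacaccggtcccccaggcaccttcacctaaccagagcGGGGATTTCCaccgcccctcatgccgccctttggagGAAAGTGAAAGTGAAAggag
In each of the 3 the core was matched at 2 overlapping positions, at -144 to -129 in B2M, -134 to -119 in TAP1 and -20 to -5 in TAPBP.

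Across all members, RefSeq gave 10 windows of 300 bases (250 before and 50 after the start) for 8 genes, with 2 starts each for TAP1 and PSMB8, and HLA-E was not matched. The response element core was found in 5 of the 10 windows (3.57% of 35116 windows in the table) and the IRF element in 4 (7.66%). These 2 motifs overlap each other in TAP2 and in the downstream PSMB8 window. The NF-kappaB motif was found in 5 (11.3%), the CCAAT box in 5 (34.6%), the CRE core TGACG in 6 (24.6%) and the GC box GGGCGG in 8 (45%). A match describes letters in the reference and is no evidence of binding.

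**Figure D3:**
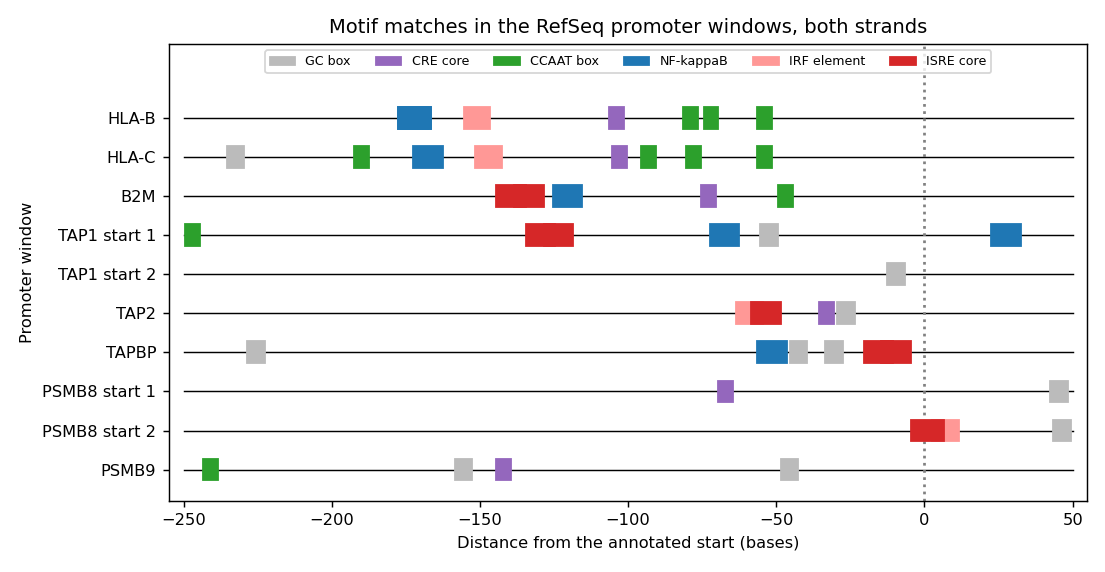
Matches to 6 motifs on both strands in the 10 RefSeq promoter windows, by distance in bases from the annotated start (dotted line). HLA-B and HLA-C show a similar layout, and the response element core (red) lies at -144 to -129 in B2M and -134 to -119 in TAP1, and closer to the start in TAP2, TAPBP and the downstream PSMB8 window.

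Neither subunit of the peptide transporter was called between the groups. TAP1 (ENSG00000168394) was at 18.7 and 10.6 FPKM in the controls, as against 16.9 and 12.3 FPKM with AURKA knocked down. It was high in both replicate 1 libraries, and its knockdown difference changed sign, from -0.13 in run 1 to 0.20 in run 2 on the log2 scale (mean 0.03, 95% interval -0.25 to 0.31 with the run, adjusted p 0.910). TAP2 (ENSG00000204267) was at 21.1 and 23.6 FPKM in the controls, as against 23.2 and 23.9 FPKM with AURKA knocked down, the controls and knockdown overlapping within a narrow range. Its log2 difference was 0.07 (95% interval -0.15 to 0.30 with the run, adjusted p 0.682).

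The ratio of TAP1 to TAP2 was 0.886 and 0.449 in the controls and 0.732 and 0.514 in the knockdown. It followed the replicate number, and the knockdown was the lower in run 1 and the higher in run 2 (exact permutation test, p = 1). TAP2 is the 1 member whose symbol stands under a second gene ID, ENSG00000250264, at 0.660 and 0.544 FPKM in the controls, as against 0.937 and 1.76 FPKM with AURKA knocked down. Adding it gave a log2 difference of 0.11 for TAP2 (adjusted p 0.499 with the run). The locus of TAP2 in the files (chromosome 6, 32780539 to 32806599, GRCh37) also holds HLA-DOB, a class II gene at 0.270 to 0.299 FPKM.

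TAPBP (ENSG00000231925, GRCh37 chromosome 6, 33267470 to 33282164), or tapasin, was at 44.1 and 31.3 FPKM in the controls, as against 49.5 and 40.0 FPKM with AURKA knocked down. The knockdown library was the higher in each run, by 0.16 and 0.35 on the log2 scale, and the groups overlapped. The mean log2 difference of 0.25 had a 95% interval of 0.04 to 0.46 with the run and of -0.27 to 0.77 without it. It was not called, with an adjusted p of 0.164 with the run and 0.896 without. Leaving out control replicate 2, in the fit without the run, brought the difference to 0.01, with the replicate numbers then unequal between the groups.

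The immunoproteasome subunits PSMB8 and PSMB9 replace the constitutive subunits PSMB5 and PSMB6 and alter which peptides are cut. PSMB8 (ENSG00000204264) was at 25.9 and 26.8 FPKM in the controls, as against 29.5 and 24.3 FPKM with AURKA knocked down, so the controls lay between the knockdown libraries. Its log2 difference was 0.02 (95% interval -0.23 to 0.28 with the run, adjusted p 0.926). PSMB9 (ENSG00000240065) was at 17.2 and 11.6 FPKM in the controls, as against 19.9 and 10.8 FPKM with AURKA knocked down, and followed the replicate number (log2 difference 0.06, 95% interval -0.22 to 0.33, adjusted p 0.818).

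Constitutive subunits were far more abundant. PSMB8 stood at 13.9% and 13.1% of the PSMB5 level in the controls and 13.1% and 10.8% in the knockdown. PSMB9 stood at 10.0% and 6.52% of the PSMB6 level in the controls and 10.3% and 5.90% in the knockdown, again by replicate number. PSMB10, the remaining immunoproteasome catalytic subunit and not a member, stood at 2.72% and 2.68% of the PSMB7 level in the controls and 3.94% and 4.05% in the knockdown. Both knockdown ratios of PSMB10 lay above both control ratios (exact permutation test, p = 0.333, the smallest possible with 2 against 2, adjusted p = 1), with PSMB10 itself at 4.84 and 5.79 FPKM (control) and 7.70 and 8.58 FPKM (knockdown) (adjusted p 0.0679 with the run). PSMB8, PSMB9 and TAP1 share 1 locus in the files (chromosome 6, 32808493 to 32827362, GRCh37). RefSeq places the TAP1 and PSMB9 starts 487 bases apart on opposite strands. The 2 genes run away from each other there, so they do not overlap at these starts. If other transcripts of the locus overlap, their reads cannot be told apart without strand information.

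**Figure D4:**
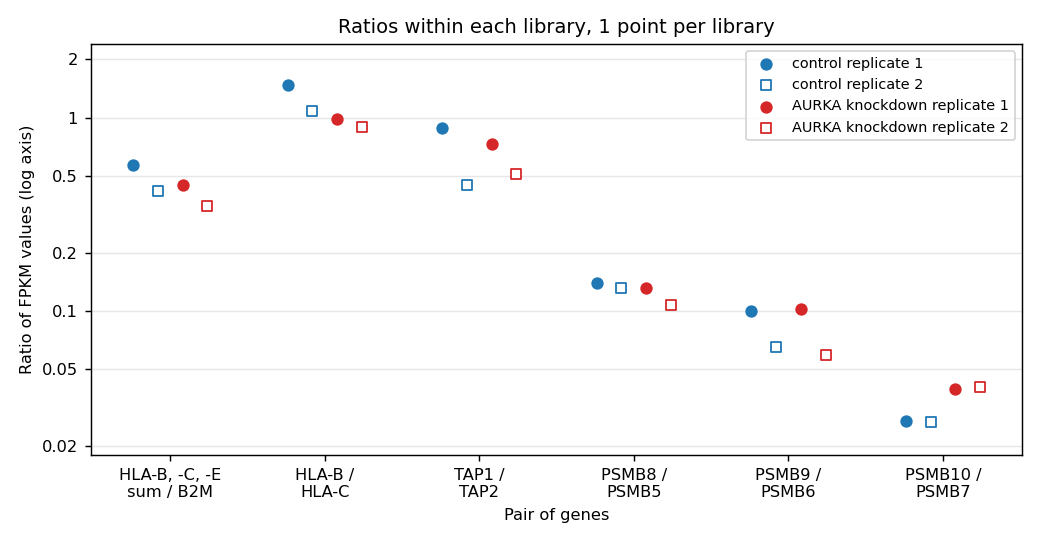
Ratios of FPKM values within each library on a log axis, with 1 point per library; blue marks control, red the AURKA knockdown, filled circles replicate 1 and open squares replicate 2. The ratios of HLA-B to HLA-C and of PSMB10 to PSMB7 separate the groups, the latter at 0.0272 and 0.0268 in the controls and 0.0394 and 0.0405 in the knockdown, whereas TAP1 to TAP2 and PSMB9 to PSMB6 separate the replicate numbers.

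Between the replicate numbers 6 of the 9 members were called, all lower in replicate 2, where 9.06% of tested genes were called lower, 4.71% were called higher and 13.8% were called in either direction. This comparison was added after the values were seen and comes from the same limma fit with both terms. PSMB9 differed by -0.68, HLA-B by -0.66, TAP1 by -0.60, HLA-E by -0.51, TAPBP by -0.39 and HLA-C by -0.38 on the log2 scale, with adjusted p-values of 0.0148 to 0.0384. The largest of these is 1.66-fold between the mean levels of 18.6 FPKM in replicate 1 and 11.2 FPKM in replicate 2 for PSMB9. B2M (-0.14, adjusted p 0.243), PSMB8 (-0.11, 0.487) and TAP2 (0.10, 0.484) were not called. The median was -0.39 over the members and -0.06 over all tested genes. The 6 were called under each of the 4 alternative settings run with both terms. Of 6 fibroblast markers 2 were tested: COL1A1, a collagen chain, was at 3.61 and 1.04 FPKM in control replicates 1 and 2 and 2.29 and 1.17 FPKM after knockdown, and was called lower in replicate 2 (log2 -0.89, adjusted p 0.0326), and PDGFRB differed by -0.54 (adjusted p 0.0695). The defining fibroblast markers DCN and LUM were below 1 FPKM in every library and were the higher in replicate 2. The summed level of the fibroblast list was 6.41 and 4.56 FPKM in the replicate 1 libraries and 3.40 and 3.24 FPKM in the replicate 2 libraries. The 3 endothelial markers found summed to 0.464 and 0.508 FPKM in the controls, as against 0.199 and 0.194 FPKM with AURKA knocked down, with none at 1 FPKM. The part of these markers in the results was not tested.

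The replicate number stands for the inferred quantification run and perhaps a separate culture. Rough depth also differed by this number, at 17400000 and 24300000 fragments in control replicates 1 and 2 and 21300000 and 27800000 in the knockdown. Run, culture and depth cannot be told apart. Among regulators of class I transcription, IRF7 (6.64 and 3.44 FPKM in control replicates 1 and 2, 7.95 and 3.92 FPKM in the knockdown), IRF9 and IRF3 were called lower in replicate 2 as well. Across the 22 tested regulators 3 were called lower and 3 higher (ATF1, EZH2 and EED), against 9.06% lower and 4.71% higher over all tested genes, and their median was -0.10. The constitutive proteasome list had 0 of 14 called in either direction (13.8% over all tested genes), with a median of 0.05. Class I-like genes had 3 lower and 0 higher of 9 (median -0.10). Ligands and co-signals had 2 lower and 0 higher of 5 (median -0.36). Peptide loading and trimming genes had 1 lower and 1 higher of 11, and immunoproteasome and activator genes 0 lower and 1 higher of 5. Interferon receptor and class I turnover genes had 0 called. HLA-F, another heavy chain, was called lower (limma, log2 -0.76, adjusted p 0.0382). Such calls were thus not particular to the members.

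**Figure D5:**
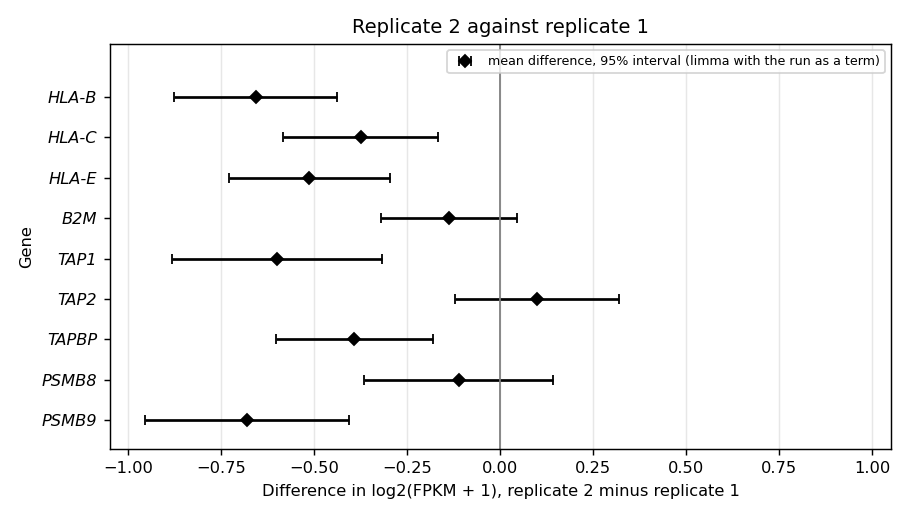
Difference in log2(FPKM + 1), replicate 2 minus replicate 1, for the 9 genes, as the estimate with its 95% interval from limma with terms for group and replicate number (4 libraries). The intervals of HLA-B, HLA-C, HLA-E, TAP1, TAPBP and PSMB9 lie below 0, and those of B2M, TAP2 and PSMB8 include it.

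Wider lists of related genes took in other pathway genes and also regulators, interferon receptors, class I-like genes and co-signals. These lists gave 3 calls between knockdown and control, all with the run and none without. The calls were 3 of 90 tested genes of the wider lists, 3.33%, against 3.44% of all tested genes, so the share lay at the background. ERAP1, the aminopeptidase that trims peptides in the endoplasmic reticulum, rose from 13.4 and 10.7 to 18.4 and 18.5 FPKM (log2 0.58, adjusted p 0.0487 with and 0.569 without the run). It was the 1 called gene of 11 in the peptide loading and trimming list (median 0.12), in which calnexin (CANX), a lectin chaperone of new heavy chains, was at 402 and 584 FPKM (control) and 544 and 666 FPKM (knockdown) without being called (adjusted p 0.130). PSME1, a subunit of the interferon-inducible proteasome activator, fell from 200 and 172 to 129 and 119 FPKM (log2 -0.57, adjusted p 0.0176 with and 0.525 without the run). Its partner PSME2, which forms the same ring, was at 212 and 201 FPKM (control) and 208 and 191 FPKM (knockdown) (adjusted p 0.755). The list of immunoproteasome and activator genes thus had 0 higher and 1 lower of 5 tested (median -0.07).

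RAET1E, a class I-like ligand of the natural killer receptor NKG2D, rose from 4.86 and 5.87 to 9.45 and 9.95 FPKM (log2 0.75, adjusted p 0.0314 with and 0.518 without the run). It belongs to a gene family with RAET1G and RAET1L, and whether fragments were misassigned among them was not tested. It was the 1 called gene of 9 tested class I-like genes (median -0.02), among which PROCR was the most abundant, at 62.8 and 44.5 FPKM (control) and 47.9 and 33.2 FPKM (knockdown) (adjusted p 0.0513).

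The remaining lists had 0 called members in either fit. HLA-F, a heavy chain of restricted expression, was at 2.15 and 0.871 FPKM in the controls, as against 1.08 and 0.221 FPKM with AURKA knocked down (adjusted p 0.114 with the run), and HLA-G was listed at 0 in all 4 libraries. Of 14 constitutive proteasome genes (median 0.06), PSMA6 was the most abundant, at 303 and 348 FPKM (control) and 322 and 336 FPKM (knockdown), and PSMB5 had the largest difference, at 186 and 204 FPKM (control) and 225 and 225 FPKM (knockdown) (log2 0.20, adjusted p 0.205). Of 22 tested regulators (median -0.0018), NFYA, a subunit of the factor that binds CCAAT boxes, was at 25.9 and 17.1 FPKM (control) and 16.7 and 14.2 FPKM (knockdown) (adjusted p 0.102). NLRC5, the class I transactivator, was singled out after its values were seen and was at 2.36 and 3.07 FPKM (control) and 2.01 and 2.15 FPKM (knockdown) (adjusted p 0.376).

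Of 9 tested interferon receptor and kinase genes (median 0.01), TYK2 was at 55.7 and 41.5 FPKM (control) and 40.4 and 36.8 FPKM (knockdown) and IFNAR2 at 16.4 and 17.3 FPKM (control) and 13.8 and 12.3 FPKM (knockdown) (adjusted p 0.132 and 0.135 with the run in limma). The interferon genes IFNB1 and IFNG were listed at 0 in every library. Of 15 class II genes, 14 were below 1 FPKM in all libraries, CD74 and CIITA included, and IFI30, a lysosomal reductase, was at 25.8 and 18.9 FPKM (control) and 18.2 and 18.4 FPKM (knockdown). Of 12 genes of class I turnover (median 0.09), HM13 was at 95.9 and 108 FPKM (control) and 113 and 116 FPKM (knockdown) and the ubiquitin ligase MARCH4 at 4.46 and 4.82 FPKM (control) and 3.54 and 3.65 FPKM (knockdown). Of 5 tested ligands and co-signals (median -0.11), NECTIN2 was at 76.9 and 48.6 FPKM (control) and 66.0 and 48.2 FPKM (knockdown) and CD276 at 49.4 and 33.9 FPKM (control) and 34.7 and 27.3 FPKM (knockdown) (adjusted p 0.0669 with the run).

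HLA-B had the smallest p of the members without the run, and the 5 tested genes with the most similar profile over the 4 libraries were APOE, SLC4A7, HELZ2, SERTAD2 and RHBDF2. Likeness was measured as the Euclidean distance between centred log2(FPKM + 1) profiles, which was 0.04 for APOE and 0.09 for RHBDF2. RHBDF2 was at 23.1 and 13.3 FPKM in the controls, as against 16.6 and 10.6 FPKM with AURKA knocked down. With 4 libraries many genes share such a profile, and this is a description only.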

How the data were processed

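RNA was sequenced from 2 control and 2 AURKA knockdown libraries of MDA-MB-231, per the labels. The authors deposited 1 table per library with values for 81493 transcripts. The header names no unit, and the deposited values were read as FPKM, since they are not whole and their totals differ. Of the low values used to estimate depth, 52.2% to 64.2% per library lay within 5% of a whole number of fragments. The depth was picked to make this share the largest, and the median share over the depths tried was 6.7% to 9.0%. Other per-length units could give the same spacing, so it does not settle the unit. Per the submitters' processing notes, hg38, HTSeq 0.8.0 and bcl2fastq 2.19 were used, with no roles stated, but the files' coordinates are GRCh37. Which program computed them is not given here.

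Here, the 81412 transcripts found in all 4 tables were summed to 20137 genes by gene ID. Row order, and 81 transcripts in each pair of tables, differed between the replicate numbers, from which 2 quantification runs were inferred. Of the shared transcripts, 1707 had another locus in control replicate 2 than in control replicate 1. The loci given here are those of control replicate 1. limma 3.58.1 (R 4.3.3, trend, two-sided) was fitted to log2(FPKM + 1) for the 12136 genes that reached 1 FPKM in 2 or more libraries, without the run, and as an alternative with it. Fold changes on this scale understate those of low genes. The fit was tested on simulated data. Further alternatives changed the pseudocount, filter, scaling and libraries used. Members and lists were chosen with earlier results of these data known. Named genes were all members and, per wider list, those called, the most abundant and the one with the largest difference. The sum of HLA-B, HLA-C and HLA-E, the ratio of HLA-B to HLA-C and the comparison of replicate numbers were chosen after the data were seen. Some results, among them 1 of the 5 planned ratios, are not reported here. Promoter sequences are from RefSeq (GRCh38.p14).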

Additional observations from a re-analysis of the deposited data

How the results depend on the processing

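Without the run, 0 of 12136 genes were called. The count was 1 with a filter at 5 FPKM, 2 with median-of-ratios scaling and 0 with a pseudocount of 0.1, with no filter or with upper-quartile scaling. With the replicate block it was 417, and in the blocked fits 1169 (median-of-ratios), 482 (upper quartile), 424 with the filter at 5 FPKM and 287 with the pseudocount of 0.1. Leaving out 1 library without the block gave 6 to 15. The lone library of a group was then assumed to vary like those of the other group. Same-numbered libraries deviated together from their group means (r = 0.645 across genes, which are not independent), but with 2 pairs and no word in the labels the numbers alone do not pair them.

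The number of members called was 0 except for 1, HLA-B, in the blocked fits with median-of-ratios factors (log2 -0.47), upper-quartile factors (-0.45) and the filter at 5 FPKM (-0.46). It was 0 to 0 when 1 library was left out, and the median of the members then ran from -0.19 (without control replicate 2) to 0.16 (without knockdown replicate 2). Differences that changed sign when 1 library was left out ranged from -0.25 to 0.18 for HLA-C, -0.46 to 0.14 for HLA-E, -0.0006 to 0.14 for B2M, -0.35 to 0.41 for TAP1, -0.0014 to 0.15 for TAP2, -0.11 to 0.16 for PSMB8 and -0.36 to 0.47 for PSMB9. HLA-B (-0.83 to -0.08) and TAPBP (0.01 to 0.50) kept their sign. The log2 difference of the TAP1 to TAP2 ratio ran from -0.53 to 0.45 and that of PSMB9 to PSMB6 from -0.45 to 0.35, while that of PSMB10 to PSMB7 ran from 0.55 to 0.59 and that of PSMB8 to PSMB5 from -0.32 to -0.04. These differences were taken with no term for the run, so leaving out 1 library made the replicate numbers unequal between the groups. They then also hold part of the gap between the replicate numbers. How much of each change this makes up was not tested.

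Between the replicate numbers, 1671 genes were called (1100 lower and 571 higher in replicate 2), and 2850 with median-of-ratios scaling (1475 lower and 1375 higher). The files hold no read totals, so depth is rough, and 2 libraries a group limit what can be called.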
